A study of Mus musculus with 24 samples.

Results

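The respiratory chain genes of mouse liver were followed across 4 groups of 6 RNA sequencing libraries. They were chosen by gene symbol: the protein-coding genes of the mitochondrial genome (mt-Nd, mt-Co, mt-Atp, mt-Cytb) and the nuclear families Nduf, Sdh, Uqcr, Cox and Atp5. These names matched 112 of 49315 genes counted, and 103 had at least 10 counts in at least 6 libraries. These 103 members comprise 13 mitochondrial-encoded and 90 nuclear-encoded genes, and all 103 were among the 17216 genes tested. The 9 that matched but were left out are 7 pseudogenes of the Uqcrh, Atp5k, Atp5l and Ndufab1 families and the subunit isoforms Cox7b2 and Cox8c.

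The study crossed 2 factors. The first was delivery of AKT and YAP1 by transposon, a model of cholangiocarcinoma (bile duct cancer), against transduction with an empty construct, so controls were transduced too. The second was genotype, wild type or Mdr2-/-, the latter without the canalicular phospholipid transporter Abcb4. Strain, age, sex and time after transduction are not given in the labels, and tumour-bearing liver holds tumour and surrounding tissue together. Whether libraries stem from different animals is not in the labels. The p-values therefore reflect sample-to-sample spread, part of which may be technical.

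The respiratory chain passes electrons from NADH and succinate through complexes I to IV to oxygen, and complex V uses the resulting proton gradient to make ATP. Most subunits are encoded in the nucleus and imported, while a small core set is transcribed from both strands of the mitochondrial genome as long precursors that are cut at transfer RNAs. Complexes I, III, IV and V draw subunits from both genomes, whereas complex II is wholly nuclear-encoded. Hepatocytes are rich in mitochondria.

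Libraries held 20976459 to 30288385 counts. The targeted gene Abcb4 was at 21.7 to 59.3 CPM in the Mdr2-/- libraries and at 165 to 377 CPM in the wild-type libraries, without overlap. Levels called CPM are counts scaled to a common library total after TMM scaling, a correction for composition; its factors ran from 0.775 to 1.39. Hepatocyte markers dominated every group, with summed levels of 118345 to 148947 CPM in wild-type controls and 33703 to 64925 CPM in Mdr2-/- tumour-bearing livers. Wild-type tumour-bearing livers held 57593 to 102310 CPM and Mdr2-/- controls 81217 to 97405 CPM. Cholangiocyte markers ran the other way, from 51.8 to 132 CPM in wild-type controls to 1103 to 3984 CPM in Mdr2-/- tumour-bearing livers. In bulk tissue, fewer cells of a type and less RNA per cell cannot be told apart.

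Part of the mitochondrial genome has near-identical copies in nuclear chromosomes, which bears on how far each mitochondrial-encoded gene can be read. Sequence was compared as words of 31 bases between the transcripts of each member and those of other genes (GENCODE M21, GRCm38). For mt-Co2, mt-Co3, mt-Atp6, mt-Nd3 and mt-Nd4l, at least 98.1% of the words also occurred in nuclear transcripts. The closest copies are the pseudogenes Gm28661, Gm28437, Gm10925, Gm28438 and Gm10222, which lie in a stretch of chromosome 1 from base 24611535 to 24616197 that holds 7 such copies. The coding sequence of mt-Nd4l, a membrane subunit of complex I, is shown because its copy matches it over 294 of 294 bases with 0 substitutions. It lies on the plus strand at chrM:9877-10173 in GRCm38, and Gm10222 on the minus strand at chr1:24612407-24612700. No letter is capitalised because no base differs.
mt-Nd4l: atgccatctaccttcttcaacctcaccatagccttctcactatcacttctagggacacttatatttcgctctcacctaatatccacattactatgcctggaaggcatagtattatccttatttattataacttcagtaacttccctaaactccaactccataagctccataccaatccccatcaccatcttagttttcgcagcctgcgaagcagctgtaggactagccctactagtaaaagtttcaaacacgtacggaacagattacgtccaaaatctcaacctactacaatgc

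These 5 genes, with mt-Atp8, stood at a mean of 4.71 to 22.4 TPM in the deposited values, which are corrected for length. The other 7, mt-Nd1, mt-Nd2, mt-Nd4, mt-Nd5, mt-Nd6, mt-Cytb and mt-Co1, stood at 3089 to 40429 TPM and held 99.97% of the counts of the mitochondrial-encoded set. For mt-Nd4l the table holds a median of 42 counts a library against 300 for Gm10222, and for mt-Nd3 a median of 39 against 719 for Gm28438. mt-Co1 shared 63.9% and mt-Nd4 62.8% of their words with nuclear transcripts, yet their copies held at most 256 counts a library. mt-Atp8 was low with only 7.47% of its words shared with nuclear transcripts, and it overlaps mt-Atp6 on the genome. Nuclear sequence outside annotated transcripts was not compared, so a copy there would not be seen. Levels of these 6 genes are therefore uncertain and their changes are read beside those of the other 7. mt-Nd6, on the opposite strand next to mt-Nd5, also cannot be separated from antisense reads, because the labels do not say whether the libraries kept strand.

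**Figure D1:**
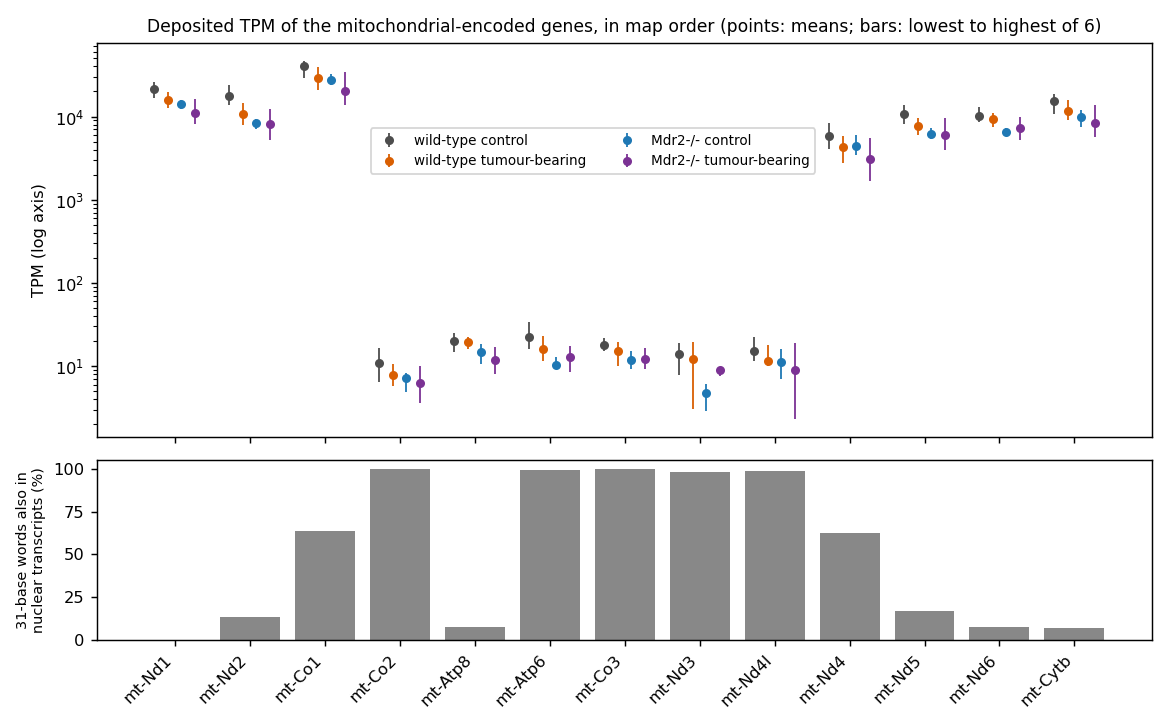
Deposited TPM of the 13 mitochondrial-encoded genes in map order (upper panel, log axis; points are group means and bars run from the lowest to the highest of 6 libraries) above the share of their 31-base words that also occur in nuclear transcripts (lower panel, %). The 6 genes at 4.71 to 22.4 TPM include the 5 whose words are almost all shared.

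The mitochondrial-encoded genes took the largest share of counts in wild-type controls, 5.90 to 9.14%, and the smallest in Mdr2-/- tumour-bearing livers, 2.70 to 5.71%. Wild-type tumour-bearing livers lay at 4.23 to 7.21% and Mdr2-/- controls at 3.88 to 4.96%, below all 6 wild-type controls. The nuclear-encoded genes together took 0.740 to 1.31% of the counts in all 24 libraries, and their ranges overlapped between all groups. Summed mitochondrial-encoded counts were 7.70 ± 1.34 (SD, n = 6) times the summed nuclear-encoded counts in wild-type controls and 4.68 ± 0.759 times in Mdr2-/- controls. This ratio was 4.93 ± 1.28 in wild-type tumour-bearing and 3.79 ± 1.44 in Mdr2-/- tumour-bearing livers. Within tumour-bearing livers it was uneven: wild-type replicates 1 to 3 lay at 3.71 to 3.86 and replicates 4 to 6 at 5.78 to 6.26, and Mdr2-/- replicate 5 reached 6.44 while the other 5 lay at 2.34 to 4.22. As a ratio within each library it does not depend on scaling between libraries.

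**Figure D2:**
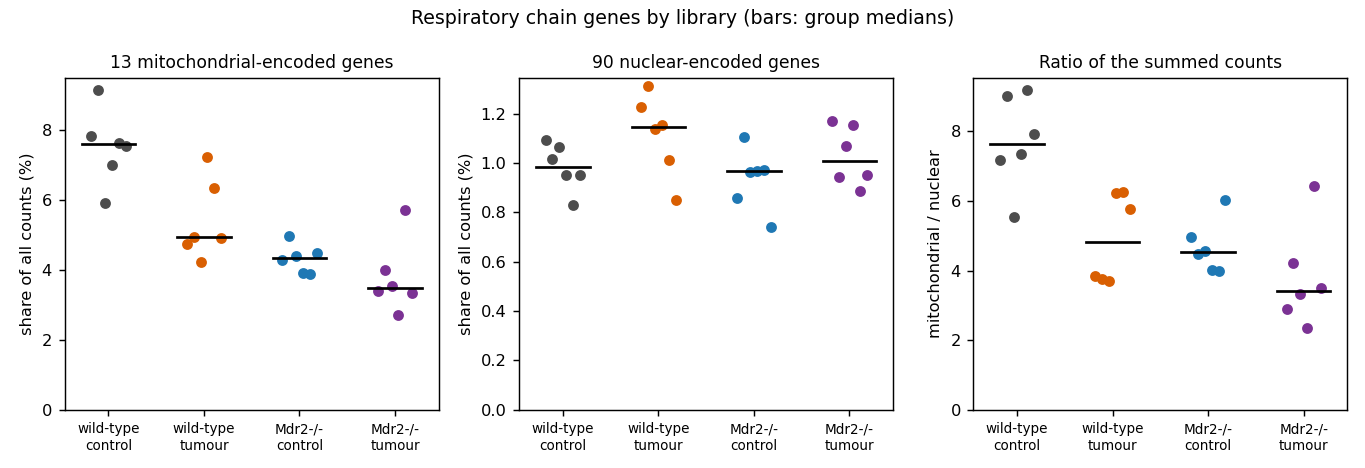
Share of all counts in the 13 mitochondrial-encoded genes (left, %), in the 90 nuclear-encoded genes (middle, %) and the ratio of their summed counts (right), 1 point per library with group medians as bars. The mitochondrial share of the Mdr2-/- controls ends at 4.96%, below the wild-type controls, while the nuclear shares of the groups overlap.

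By complex, the ratio was taken to the nuclear-encoded subunits only, without the 8 assembly factors of complex I and 2 other members of complex IV. In wild-type controls this ratio of mitochondrial-encoded to nuclear-encoded counts was 14.4 ± 2.32 for complex I (SD, n = 6). It was 6.38 ± 1.82 for complex III and 17.6 ± 4.36 for complex IV. In Mdr2-/- controls it was 8.67 ± 1.48, 4.60 ± 1.13 and 12.4 ± 3.52 in the same order. Wild-type tumour-bearing livers stood at 8.95 ± 2.08, 4.44 ± 1.39 and 10.4 ± 3.78. The lowest means were those of Mdr2-/- tumour-bearing livers, with 6.97 ± 2.48, 3.51 ± 1.47 and 7.95 ± 3.57. The groups kept wild-type controls highest and Mdr2-/- tumour-bearing livers lowest in each of these 3 complexes. Complex V is not read in this way because both of its mitochondrial-encoded genes are among the uncertain ones. In complex IV the uncertain genes mt-Co2 and mt-Co3 add few counts, so its ratio is almost wholly that of mt-Co1. In complex I the uncertain genes mt-Nd3 and mt-Nd4l likewise add few counts.

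Between the controls, all 13 mitochondrial-encoded genes were lower in Mdr2-/- than in wild-type livers. mt-Co1, the catalytic core subunit of complex IV and the most abundant member per length, ranged from 26937 CPM through a median of 38453 to 46725 CPM in wild-type controls. It spanned 15953, 19286 and 22150 CPM in Mdr2-/- controls, so the groups did not overlap. It fell by 1.0 ± 0.19 (log2, SE; edgeR quasi-likelihood test, Benjamini-Hochberg adjusted p = 0.000148), and the 13 changes had a median of -1.07. The median was -1.09 for the 7 genes with at least 1000 counts in every library and -1.04 for the 6 uncertain ones. The nuclear copies Gm28661, Gm28437, Gm10925, Gm28438 and Gm10222 were also lower, at -0.77, -1.30, -1.05, -1.49 and -1.42. mt-Nd2, a membrane subunit of complex I, fell from a median of 10594 to 3704 CPM, by 1.53 ± 0.21 (edgeR adjusted p = 3.54e-06). Of all genes tested, 50.5% were called here, 24.3% lower. For 11 of the 13 genes, mt-Co2 and mt-Atp8 being the exceptions, every Mdr2-/- control lay below every wild-type control, as was so for 10.6% of all genes tested. Other RNAs moved in the same comparison. Hepatocyte markers fell in 4 of 7 cases (median -0.46) and 7 nuclear non-coding RNAs in 6 (median -1.10). Cholangiocyte and fibroblast markers rose in 6 of 7 cases each (medians 2.29 and 2.06) and leukocyte markers in 4 of 7 (median 0.63). The part of these cell types in the result was not tested, and with the summed share of the 7 non-coding RNAs as a covariate mt-Co1 was at -1.11.

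The nuclear-encoded set had a smaller median change between the controls. Per length its highest member was Cox8a, a small subunit of complex IV, at group means of 453 to 664 TPM, against 20370 to 40429 TPM for mt-Co1. Of its 90 genes 37 fell and 4 rose, with 24.3% and 26.2% of all genes called lower and higher, and its median of -0.36 lay 0.39 below that of all genes. The direction of the calls depends on scaling: by total library size 19 rose and 15 fell, and on log2(TPM + 1) 32 rose and 11 fell. Those scalings move the median of all genes by 0.30 and 0.27, and relative to it the nuclear set stayed lower under all 37 alternatives, by 0.21 to 0.45. The mitochondrial-encoded set lay 0.90 to 1.19 below it.

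In complex I, whose nuclear subunits build the matrix arm and surround the membrane arm, 19 of 44 nuclear genes fell and 2 rose between the controls. Among all genes 24.3% fell and 26.2% rose. Ndufb4, an accessory subunit of the membrane arm, ranged over 48.8, 123 and 158 CPM (lowest, median, highest) in wild-type controls. In Mdr2-/- controls it ranged over 22.9, 42.0 and 70.5 CPM, so the groups overlapped. It fell by 1.36 ± 0.30 (edgeR adjusted p = 0.00074). Ndufs1, the largest iron-sulfur subunit of the electron input arm, fell from 160 to 221 CPM to 116 to 136 CPM with no overlap, by 0.62 ± 0.13 (edgeR adjusted p = 0.000288). Of the 90 nuclear members 4 were lower without overlap between the controls, against 10.6% of all genes. Of the 8 assembly factors, Ndufaf4 and Ndufaf6 fell by 0.87 and 0.86, and Ndufaf3 rose by 0.49. Ndufa8, a subunit facing the intermembrane space, also rose, from a median of 41.7 to 58.1 CPM, by 0.47 ± 0.15 (edgeR adjusted p = 0.0132).

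Complex III had 6 of its 8 nuclear genes fall between the controls and 0 rise, and complex IV 4 of 18 fall and 1 rise. Of all genes 24.3% fell and 26.2% rose, so neither share of complex IV was above that of all genes. Uqcrq, a small subunit of complex III, was at 276, 533 and 683 CPM in wild-type controls and at 130, 233 and 320 CPM in Mdr2-/- controls. The groups overlapped, and it fell by 1.16 ± 0.25 (edgeR adjusted p = 0.000621). Cox6c, a structural subunit of complex IV, was at 151, 276 and 347 CPM against 71.8, 113 and 146 CPM, with no overlap, and fell by 1.29 ± 0.23 (edgeR adjusted p = 7.26e-05). It is among the 4 of 90 nuclear members that were lower without overlap. In complex V 6 of 16 genes fell and 1 rose. Atp5e, the epsilon subunit of its rotor, fell from a median of 186 to 72.3 CPM, by 1.23 ± 0.30 (edgeR adjusted p = 0.00164), while Atp5b, the catalytic beta subunit, differed by -0.02 ± 0.13. The riser was Atp5g2, which encodes the c subunit of the membrane ring, at 0.47 ± 0.14. The falls of Ndufb4, Uqcrq, Cox6c and Atp5e and the rises of Ndufa8, Atp5g2 and Ndufaf3 stayed past the threshold under all 37 alternatives.

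**Figure D3:**
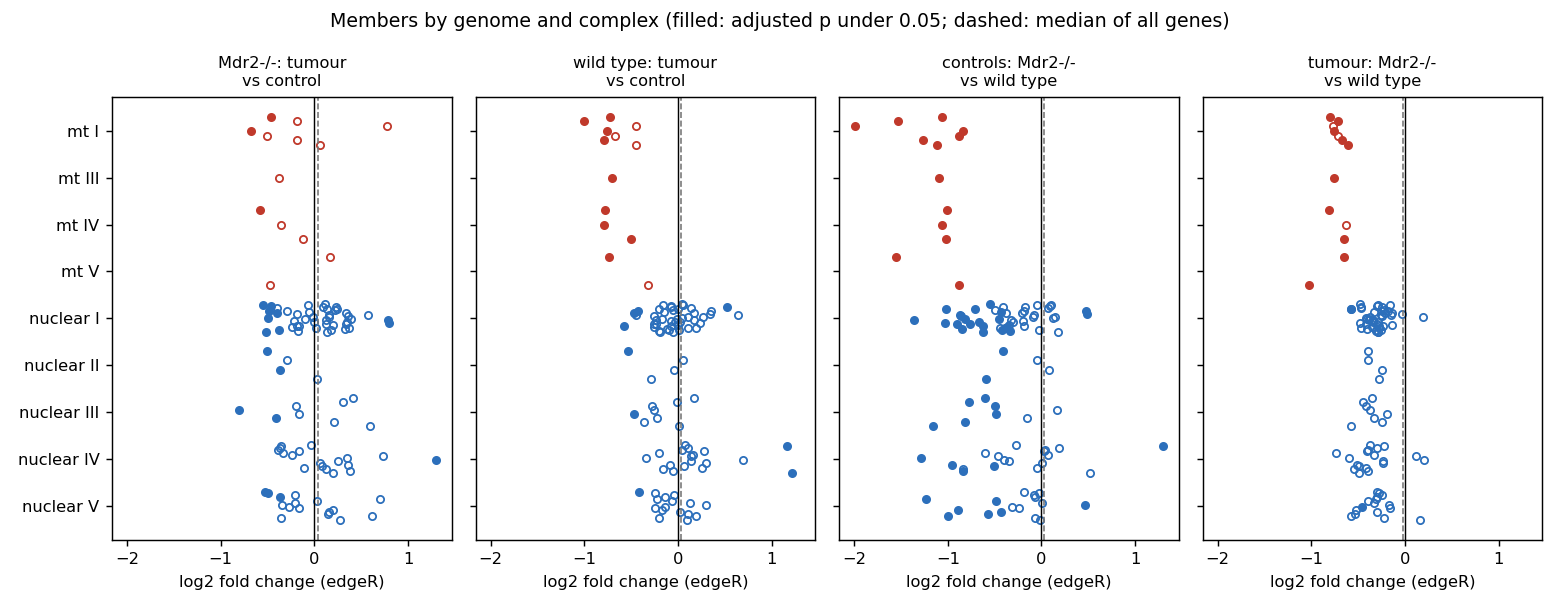
Log2 fold change of each member in 4 comparisons (x axis), by genome and complex (y axis; red mitochondrial-encoded, blue nuclear-encoded; filled points passed the test, and the dashed line is the median of all genes). Between the controls all 13 mitochondrial-encoded genes lie left of 0.

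Complex II, which links the citric acid cycle to the chain and has no mitochondrial-encoded subunit, is represented by all 4 of its subunit genes. Sdha, its flavoprotein, was at 267, 333 and 356 CPM in wild-type controls and lower, at 152, 224 and 317 CPM, in tumour-bearing livers of that genotype. It ranged over 190, 238 and 285 CPM in Mdr2-/- controls and over 116, 173 and 198 CPM in Mdr2-/- tumour-bearing livers. Ranges overlapped in both tumour comparisons, in which Sdha fell by 0.53 ± 0.15 in wild type and by 0.51 ± 0.15 in Mdr2-/- (edgeR adjusted p = 0.011 and 0.0142). Both calls were lost by total library size and on TPM. With the share of counts in 7 nuclear non-coding RNAs as covariate, Sdha in Mdr2-/- was at -0.13 (adjusted p = 0.732). The iron-sulfur subunit Sdhb differed by 0.05 ± 0.15 and -0.30 ± 0.15 in the same comparisons (edgeR adjusted p = 0.836 and 0.127). Of the membrane anchors, Sdhc fell by 0.36 ± 0.13 in Mdr2-/- tumour-bearing livers (edgeR adjusted p = 0.0375), and Sdhd, with Sdha at -0.42 ± 0.15, was lower between the controls, where Sdhd fell by 0.59 ± 0.22 between the controls (edgeR adjusted p = 0.0266). On TPM the value of Sdha between the controls turned to 0.03. The call of Sdhc was lost under 11 and that of Sdhd under 8 of 37 alternatives.

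In wild-type livers the tumour-bearing group held less of the mitochondrial-encoded RNAs and a nuclear-encoded set close to the median of all genes. mt-Nd2 was at 8800, 10594 and 14299 CPM in controls and at 3411, 5986 and 7724 CPM in tumour-bearing livers, without overlap. It fell by 1.0 ± 0.21 (edgeR adjusted p = 0.000887). mt-Co1 spanned 14393 to 30755 CPM in tumour-bearing livers, into the range of the controls, and fell by 0.78 ± 0.19 (edgeR adjusted p = 0.00322). In all, 9 of 13 mitochondrial-encoded genes fell and 0 rose, with 28.4% of all genes called and 11.5% called lower, and the set's median was -0.73. Of the 7 genes with at least 1000 counts in every library 6 fell (median -0.76). Of the 6 uncertain ones 3 fell (median -0.59). mt-Nd1, mt-Nd2 and mt-Nd5 were lower without overlap between the groups, 3 of 13 against 3.49% of all genes. By total library size 4 of the 13 were called lower and on TPM 3, none higher.

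Among the 90 nuclear-encoded genes 6 fell and 3 rose in wild-type tumour-bearing livers (11.5% and 16.9% of all genes), with a median of -0.04. By total library size 20 rose and 1 fell, and on log2(TPM + 1) 30 rose and 0 fell. Those scalings move the median of all genes by 0.30 and 0.17, and the nuclear set then lay 0.07 below and 0.06 above it. Ndufs1 was at 160, 188 and 221 CPM in controls and at 96.8, 127 and 154 CPM in tumour-bearing livers, with no overlap, and fell by 0.58 ± 0.13 (edgeR adjusted p = 0.00135). Of the 90 nuclear members 2 were lower and 1 was higher without overlap, against 3.49% and 7.27% of all genes. Uqcrc2, a core subunit of complex III, fell by 0.47 ± 0.14 (edgeR adjusted p = 0.0169). Its value was -0.42 without wild-type tumour-bearing replicate 3 (adjusted p = 0.0502), -0.17 by total library size, -0.17 on log2(TPM + 1) and -0.23 with the title number range as covariate, none of them called. Atp5a1, the alpha subunit of complex V, fell by 0.41 ± 0.14 (edgeR adjusted p = 0.0266), a call lost under 9 of 37 alternatives. Ndufa13, an accessory subunit of complex I, rose from a median of 82.5 to 112 CPM, by 0.53 ± 0.17 (edgeR adjusted p = 0.0187). With the non-coding RNA share as covariate it was at 0.32 (edgeR adjusted p = 0.0653). Also called were falls of Sdha, Ndufa9 and Ndufaf1 and rises of Cox4i2 and Ndufa4l2. Without tumour-bearing replicate 3 the nuclear set gave 5 calls in place of 9. Cholangiocyte markers rose in 6 of 7 cases and hepatocyte markers fell in 5 of 7 in this comparison, and their part in these changes was not tested.

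In Mdr2-/- livers, whose controls already had low mitochondrial-encoded RNA, fewer of these genes passed the test. mt-Co1 was at 15953, 19286 and 22150 CPM in controls and at 9105, 11577 and 19307 CPM in tumour-bearing livers, where replicate 5 lay among the controls. It fell by 0.59 ± 0.19 (edgeR adjusted p = 0.0205), and mt-Nd4 and mt-Nd1 fell by 0.68 and 0.46. So 3 of 13 fell and 0 rose, against 17.0% of all genes called lower, with a median of -0.36. All 3 were among the 7 genes with at least 1000 counts in every library (median -0.37). Of the 6 uncertain ones 0 were called (median -0.24). With the non-coding RNA share as covariate 0 of the 13 were called, and mt-Co1, mt-Nd4 and mt-Nd1 were at -0.28, -0.13 and -0.36 (edgeR adjusted p = 0.542, 0.824 and 0.368). Leaving out tumour-bearing replicate 6 left 0 calls and leaving out replicate 5 gave 6. By total library size 0 fell and 1 rose, with the set 0.39 below the median of all genes as against 0.40 with TMM.

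The nuclear-encoded genes that fell in Mdr2-/- tumour-bearing livers include core, catalytic and accessory subunits. Uqcrc1, a core subunit of complex III, was at 124, 151 and 162 CPM in controls and at 62.0, 88.6 and 103 CPM in tumour-bearing livers, without overlap. It fell by 0.80 ± 0.15 (edgeR adjusted p = 0.000607). Atp5a1 fell from 592, 703 and 782 CPM to 333, 502 and 561 CPM, without overlap, by 0.52 ± 0.14 (edgeR adjusted p = 0.0063). Its partner Atp5b fell by 0.50 ± 0.13 (edgeR adjusted p = 0.00538), from 862 to 1074 CPM to 503 to 825 CPM. Ndufa10, an accessory subunit of complex I, fell by 0.55 ± 0.15 (edgeR adjusted p = 0.00647). For Ndufa10, Ndufa9, Ndufv3, Uqcrc1, Atp5a1 and Atp5b every tumour-bearing library lay below every control, 6 of 90 nuclear members against 7.62% of all genes. In all, 14 of 90 nuclear genes fell and 3 rose, against 17.0% and 17.9% of all genes, so neither share of members was above that of all genes. In this comparison cholangiocyte markers rose in 5 of 7 cases (median 2.01), hepatocyte markers fell in 4 of 7 (median -0.71) and the 7 nuclear non-coding RNAs rose in 4, and the part of the cell types was not tested. The split is 4 fallen and 22 risen by total library size, which moves the median of all genes by 0.24, and 7 fallen and 19 risen on log2(TPM + 1). Without tumour-bearing replicate 6 there were 7 falls and 1 rise, and without replicate 5 there were 8 and 3.

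The 3 that rose were Cox7a1, Ndufb8 and Ndufb4. Ndufb8, an accessory subunit of the membrane arm of complex I, was at 64.8, 122 and 193 CPM in Mdr2-/- controls and at 143, 184 and 393 CPM in tumour-bearing livers. Replicate 1 held the 393 CPM and the next highest library 205 CPM. The rise of 0.79 ± 0.30 (edgeR adjusted p = 0.0454) was 0.52 with an adjusted p of 0.172 without that library, held under 21 of 37 alternatives, and the sign turned to -0.46 when the share of counts in 7 nuclear non-coding RNAs was a covariate. That share was 7.95% in replicate 1 and 1.74 to 4.29% in the controls. Mdr2-/- tumour-bearing replicate 6 had nearly the same share as replicate 1, 7.92%, but did not stand apart. It held Ndufb8 at 190 CPM, Ndufb4 at 68.6 CPM, Atp5e at 97.9 CPM and Uqcrq at 302 CPM. The share was low, at 2.30%, in wild-type tumour-bearing replicate 6. That library had the lowest Ndufb8 (99.8 CPM), Ndufb4 (34.8 CPM), Atp5e (54.4 CPM) and Uqcrq (219 CPM) of its group. With the covariate Uqcrc1, Atp5a1 and Ndufa10 were at -0.37, -0.27 and -0.15 and no longer called (edgeR adjusted p = 0.183, 0.384 and 0.623).

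**Figure D4:**
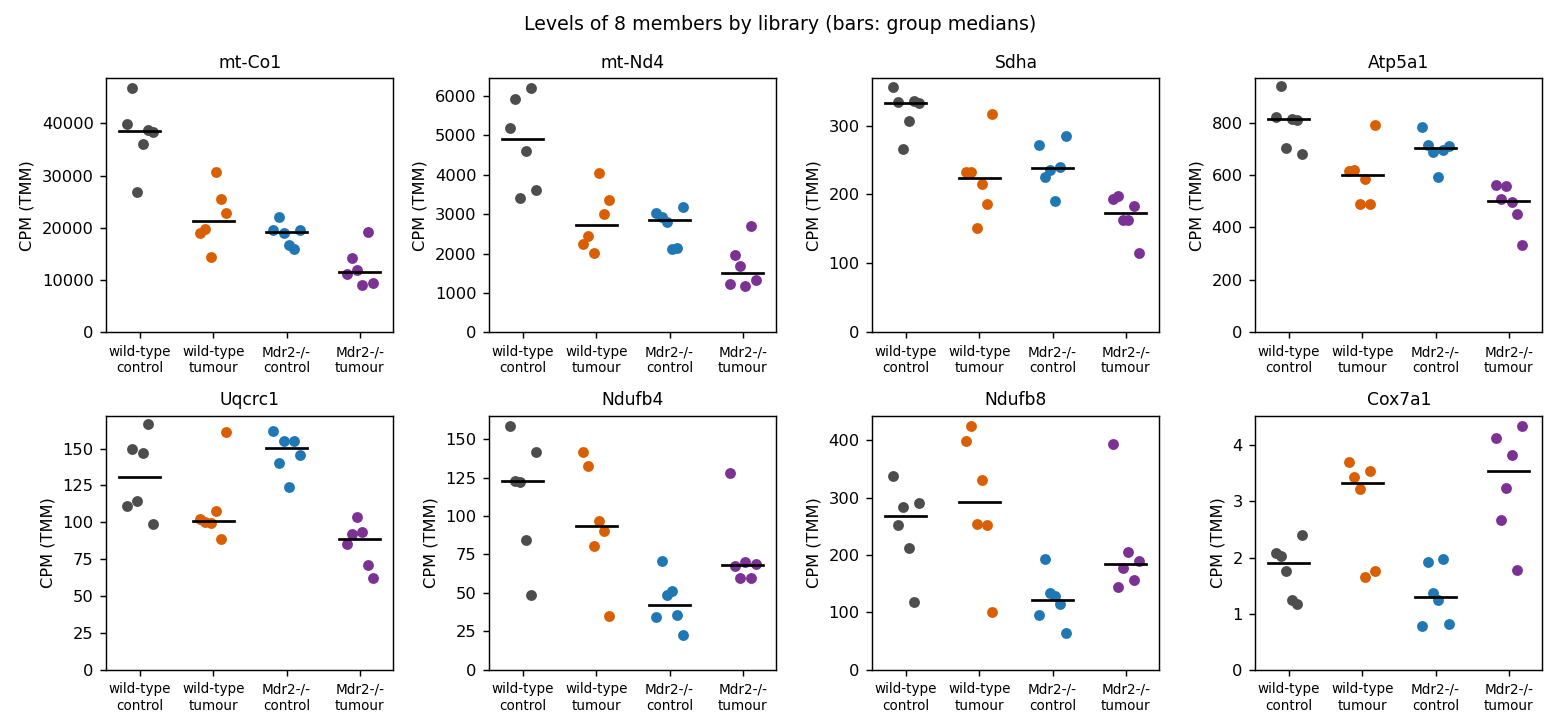
CPM of 8 members, 1 point per library with group medians as bars (each axis starts at 0). mt-Co1 and mt-Nd4 are highest in wild-type controls, whereas Uqcrc1 is lowest in Mdr2-/- tumour-bearing livers (62.0 to 103 CPM) and Ndufb8 has 1 tumour-bearing Mdr2-/- library at 393 CPM.

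Between tumour-bearing livers of the 2 genotypes, mitochondrial-encoded RNA was again lower in Mdr2-/-. mt-Nd1, at 5140, 7686 and 9449 CPM in wild type and at 3128, 4515 and 5620 CPM in Mdr2-/-, fell by 0.80 ± 0.17 (edgeR adjusted p = 0.00235). The ranges overlapped, as they did for all of the 13 except mt-Atp8, and 1.39% of all genes were lower without overlap. Cholangiocyte markers were higher in 7 of 7 cases (median 1.76) and fibroblast markers in 4 of 7, while endothelial markers were lower in 5 of 6 (median -0.57) and hepatocyte markers in 3 of 7. Their part in the result was not tested. In all, 10 of 13 were called lower and 0 higher, against 4.0% of all genes called lower, with a median of -0.72. These were all 7 genes with at least 1000 counts in every library (median -0.76) and 3 of the 6 uncertain ones (median -0.68). The count of 10 fell to 4 without wild-type replicate 4 or Mdr2-/- replicate 6, to 5 without Mdr2-/- replicate 4 and to 6 without wild-type replicate 2, and on TPM it was 2. Of the 90 nuclear genes 3 were called lower and 0 higher, with a median of -0.32 (4.0% and 7.13% of all genes). These were Ndufa6, Ndufa5 and Atp5g3, and the calls of Ndufa5 and Atp5g3 were lost under 21 and 18 of 37 alternatives. The nuclear count moved with single libraries, to 13 without Mdr2-/- replicate 1, 15 without wild-type replicate 6 and 36 without both. It was 10 without wild-type replicate 3, 5 without wild-type replicate 5 or Mdr2-/- control replicate 6, 1 without Mdr2-/- replicate 2 or 5, and 0 without Mdr2-/- replicate 6 or wild-type replicate 1, 2 or 4. Without Mdr2-/- control replicate 1, 3, 4 or 5, which enter only the shared estimate of spread, it was 1. Relative to all genes the nuclear set stayed lower under all 37 alternatives, by 0.23 to 0.47.

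The tumour effects in the 2 genotypes share no libraries, and their difference was tested for each gene. mt-Nd2 and mt-Atp6 had a larger value in Mdr2-/- than in wild type, by 0.81 ± 0.29 and 0.90 ± 0.29 (edgeR adjusted p = 0.0438 and 0.0271), and of all genes 25.3% were called, 11.9% in this direction. The level of mt-Atp6 is uncertain, and its nuclear copy Gm10925 was at 0.33 ± 0.26 (edgeR adjusted p = 0.35). For mt-Nd2 the effects were -0.19 ± 0.21 in Mdr2-/- and -1.0 ± 0.21 in wild type. Its call held under 17 and that of mt-Atp6 under 30 of 36 alternatives, and without Mdr2-/- tumour-bearing replicate 1 or wild-type control replicate 6 neither was called. Without any one of 11 further libraries mt-Atp6 alone was called. The other way, 4 nuclear genes were called (13.4% of all genes), Ndufa8, Cox4i2, Ndufa4l2 and Atp5g2, of which Atp5g2 at -0.64 ± 0.20 (edgeR adjusted p = 0.0209) held under all 36. That count was 2 without Mdr2-/- tumour-bearing replicate 5, and without wild-type control replicate 5 it was 7, with 3 more in the first direction. Ndufa8 lost its call without Mdr2-/- tumour-bearing replicate 5 or 6 (edgeR adjusted p = 0.0533 and 0.0739). For the rest of the 103 members the difference did not pass the test, which does not show that the effects were alike.

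**Figure D5:**
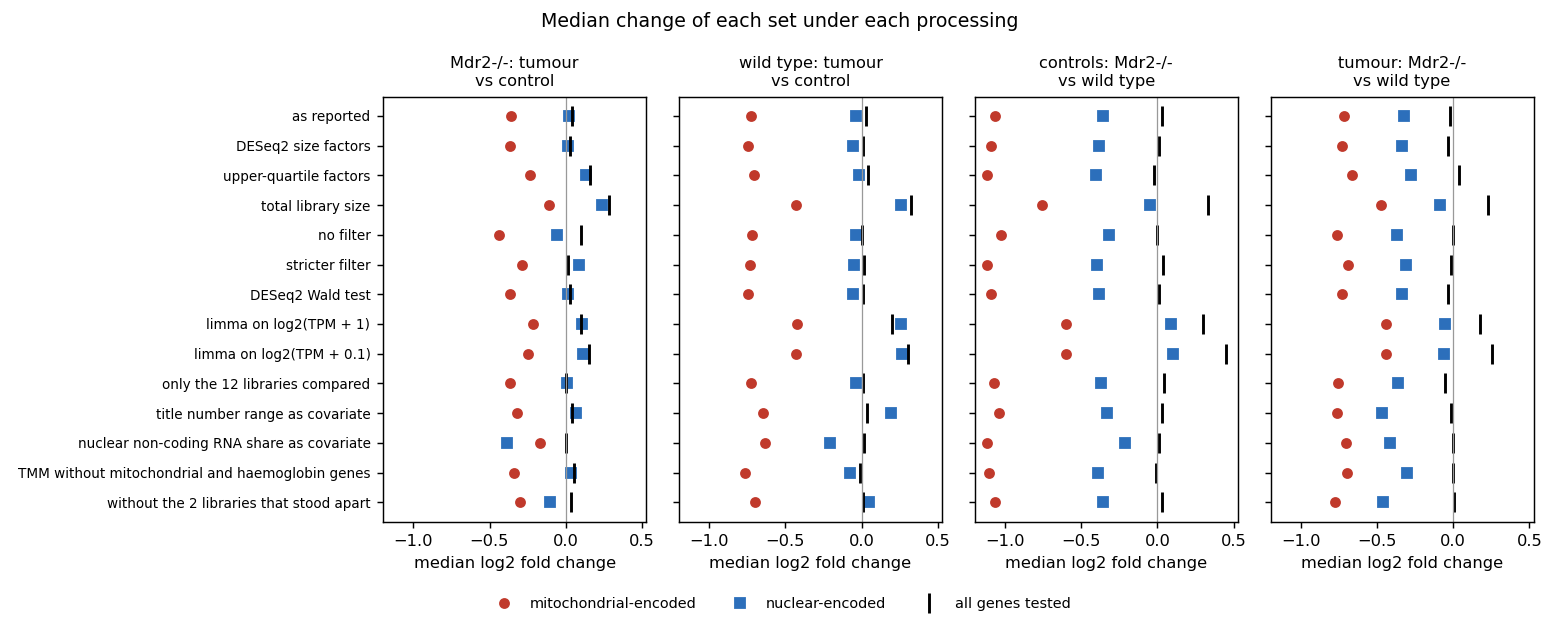
Median log2 fold change (x axis) of the mitochondrial-encoded set (red circles), the nuclear-encoded set (blue squares) and all genes tested (black ticks) under each processing (y axis), in 4 comparisons. The mitochondrial set lies below all genes in every panel, and the nuclear set moves with the median of all genes when libraries are scaled by total size or TPM are used.

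Several complex IV subunits have paired forms, one general and one restricted to other tissues or conditions. Cox4i1, the general form of subunit 4, was at 121 to 285 CPM, and Cox4i2, known from lung and low oxygen, at 0.0548 to 0.706 CPM. Cox4i2 rose in wild-type tumour-bearing livers (1.16 ± 0.43, edgeR adjusted p = 0.0439) and in Mdr2-/- against wild-type controls (1.30 ± 0.42, adjusted p = 0.0132), the first being lost under 11 of 35 alternatives. Ndufa4l2, the hypoxia-induced relative of Ndufa4, was at 0.409, 0.710 and 0.959 CPM in wild-type controls and at 1.13, 1.67 and 2.38 CPM with tumours, without overlap, as was so for 7.27% of all genes in that direction. It rose by 1.22 ± 0.23 (edgeR adjusted p = 0.000384) and kept the call under all 37 alternatives. In Mdr2-/- tumour-bearing livers it differed from controls by 0.20 ± 0.22 (edgeR adjusted p = 0.494). The difference of these effects, -1.02 ± 0.32, passed the test (edgeR adjusted p = 0.0239) and was lost under 3 of 36 alternatives. Fibroblast markers rose in 6 of 7 cases in wild type and 3 of 7 in Mdr2-/-, and 4 of 7 had a smaller effect in Mdr2-/-, and their part in the Ndufa4l2 values was not tested.

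Cox7a1, Cox6a2 and Cox8b are forms typical of heart and skeletal muscle. Cox7a1 was at 0.788, 1.30 and 1.97 CPM in Mdr2-/- controls and at 1.78, 3.53 and 4.35 CPM in tumour-bearing livers, with a slight overlap. It rose by 1.30 ± 0.28 (edgeR adjusted p = 0.00132), was at 0.45 with the non-coding RNA share as covariate (adjusted p = 0.397), and was at 0.70 ± 0.28 in wild type, which did not pass the test (adjusted p = 0.0591). Cox6a2 and Cox8b passed the test in no comparison, but the libraries fell apart on them in another way. In 18 libraries 6 striated muscle markers summed to 88.0 to 253 CPM, with Cox6a2 at 2.51 to 7.36 CPM and Cox8b at 0.216 to 1.10 CPM. In the other 6 the markers summed to 0.281 to 1.46 CPM, with Cox6a2 at 0.0298 to 0.387 CPM and Cox8b at 0 to 0.0647 CPM. These 6 are Mdr2-/- tumour-bearing replicates 5 and 6, Mdr2-/- control replicates 1 and 6 and wild-type control replicates 3 and 4. Cox7a1 did not follow this divide, with 0.788 to 4.35 CPM in those 6 and 1.18 to 4.13 CPM in the 18. None of the 6 muscle markers was called in any comparison.

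Sequence just upstream of the nuclear members was searched for 4 motifs of factors known to drive respiratory genes, on both strands of windows from 250 bases before to 50 after the start (RefSeq, GRCm38.p6). There were 80 windows for 75 members. The NRF1 motif (GCGCA, any base, then GCGC) was in 20 of the 80 and in 4.60% of 32851 windows of all genes. The ETS motif CCGGAAG, bound by GABP, was in 18 of 80 against 8.86%, the YY1 motif AAGATGGCG in 8 against 1.40% and the ERR motif CAAGGTCA in 4 against 1.56%. The letters AAG end the ETS motif and begin the YY1 motif, so a stretch can hold both, and all 4 are descriptions of letters, not of binding. Among the factors, Yy1 fell by 1.39 ± 0.23 and Gabpa, a subunit of GABP, by 1.21 ± 0.19 in Mdr2-/- against wild-type controls (edgeR adjusted p = 3.42e-05 and 1.76e-05). No value is given here for Nrf1. Of 11 nuclear regulators of mitochondrial biogenesis 4 fell and 0 rose between the controls (median -0.29), against 24.3% and 26.2% of all genes. A link between these factors and the members was not tested. The windows of 3 genes follow, with motif matches in capitals: Ndufb4 and Uqcrc1 for the NRF1 motif and Atp5e for the ETS motif. Ndufb4 and Atp5e fell between the controls, and Uqcrc1 fell in Mdr2-/- tumour-bearing livers. They lie at chr16:37654319-37654618 (minus strand), chr9:108936398-108936697 (plus) and chr2:174464052-174464351 (minus).
Ndufb4: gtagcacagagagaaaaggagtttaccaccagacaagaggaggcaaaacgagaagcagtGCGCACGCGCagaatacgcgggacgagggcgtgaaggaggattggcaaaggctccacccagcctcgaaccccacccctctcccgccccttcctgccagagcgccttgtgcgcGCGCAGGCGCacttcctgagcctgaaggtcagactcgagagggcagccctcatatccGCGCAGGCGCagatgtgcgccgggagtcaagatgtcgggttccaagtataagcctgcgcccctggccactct
Uqcrc1: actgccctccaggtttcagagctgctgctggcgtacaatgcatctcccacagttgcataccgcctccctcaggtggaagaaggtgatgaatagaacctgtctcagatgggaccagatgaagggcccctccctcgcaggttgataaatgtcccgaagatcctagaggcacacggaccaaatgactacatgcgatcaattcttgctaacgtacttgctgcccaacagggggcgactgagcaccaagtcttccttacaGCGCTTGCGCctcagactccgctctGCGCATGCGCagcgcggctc
Atp5e: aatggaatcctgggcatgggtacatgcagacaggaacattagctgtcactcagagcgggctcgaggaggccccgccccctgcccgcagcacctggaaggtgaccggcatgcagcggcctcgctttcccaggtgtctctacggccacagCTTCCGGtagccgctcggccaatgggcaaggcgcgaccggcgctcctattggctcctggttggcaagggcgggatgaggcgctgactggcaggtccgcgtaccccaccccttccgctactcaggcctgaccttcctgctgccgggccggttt

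Genes that make or handle the mitochondrial genome and its RNA were followed as lists beside the members. Of 18 genes of mitochondrial DNA upkeep and transcription 6 fell and 2 rose between the controls, with a median of -0.0037. Tfam, which packages mitochondrial DNA and starts its transcription, was at 49.1 CPM on average in wild-type and 31.4 CPM in Mdr2-/- controls. It fell by 0.64 ± 0.14 (edgeR adjusted p = 0.000605) with no overlap, as was so for 10.6% of all genes in that direction. In tumour-bearing livers it was lower in Mdr2-/- by a log2 change of -0.44 ± 0.14 (edgeR adjusted p = 0.0416). Of 16 genes of mitochondrial RNA processing 7 fell and 1 rose between the controls. Lrpprc, which stabilises mitochondrial messenger RNA, fell in tumour-bearing livers of both genotypes, each without overlap. The falls were 0.86 ± 0.15 in wild type and 0.58 ± 0.15 in Mdr2-/- (edgeR adjusted p = 0.000106 and 0.0047). Of all genes 3.49% and 7.62% were lower without overlap in these comparisons. Mitochondrial transfer RNAs, which are cut from the same precursors, fell in 14 of 16 tested cases between the controls and rose in 0, with a median of -1.55, against 24.3% of all genes called lower. The 7 nuclear non-coding RNAs, which do not come from those precursors, fell in 6 cases there.

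Other nuclear lists for the mitochondrion are given by their counts. Between the controls 24.3% of all genes fell and 26.2% rose, and in Mdr2-/- tumour-bearing livers 17.0% and 17.9%. Of 78 tested proteins of the mitochondrial ribosome 10 fell and 13 rose between the controls, and 12 fell and 5 rose in Mdr2-/- tumour-bearing livers. Of 17 citric acid cycle genes 8 fell and 0 rose in Mdr2-/- tumour-bearing livers, among them Dlst, Ogdh and Mdh2, by 0.68, 0.65 and 0.61. In wild-type tumour-bearing livers 2 of the 17 fell, Idh3a and Idh3b, by 0.55 and 0.52, with 11.5% of all genes called lower. Of 20 electron carriers and ubiquinone enzymes 7 fell and 2 rose between the controls. Etfdh feeds electrons from fatty acid oxidation to ubiquinone. It fell by 0.96 ± 0.13 between the controls, by 0.65 ± 0.13 in wild-type tumour-bearing livers and by 0.58 ± 0.13 between tumour-bearing livers (edgeR adjusted p = 2.86e-06, 0.000647 and 0.00469), each without overlap. Of all genes 10.6%, 3.49% and 1.39% were lower without overlap in the same order. Of 37 tested assembly factors outside the member families 8 fell and 4 rose between the controls. Of 11 nuclear regulators of mitochondrial biogenesis 4 fell and 0 rose there, led by Esrrg, an estrogen-related receptor, at a log2 change of -2.96 ± 0.33 (edgeR adjusted p = 1.44e-07).

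Among the nuclear-encoded members themselves, the tumour values differed by transcript length. Lengths were those implied by the ratio of deposited counts to TPM. The shortest 30, of 360 to 1108 bases, had median changes of 0.13 in Mdr2-/- and 0.11 in wild type, and the longest 30, of 2101 to 8086 bases, medians of -0.18 and -0.10. Of the 14 falls in Mdr2-/- tumour-bearing livers 7 were in the longest 30, 7 in the middle 30 and 0 in the shortest 30. Between the controls the medians were -0.42, -0.23 and -0.31 from shortest to longest. By sequence shared with other genes, the 31 members with at least 10% of their words shared had a median of -0.36 between the controls. The other 59 had one of -0.35. In Mdr2-/- tumour-bearing livers the medians were -0.05 and 0.09, with 1 fall among the 31 and 13 among the 59. In wild-type tumour-bearing livers they were 0.03 and -0.05, with 1 and 5 falls.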

How the data were processed

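Total RNA was treated with DNase, depleted of ribosomal RNA with a kit named for bacteria and sequenced as paired reads, per the labels' protocols. The deposited table gives whole read counts per gene and TPM (transcript levels scaled to a fixed total and corrected for length by the authors) for 24 libraries. The submitters' processing notes name mm39 and DESeq2. No source used here gives the aligner, the counter or whether counting used strand. Genes without a symbol, 174 in number and 0.0111 to 0.0178% of counts, were not removed before the fit and cannot match a name.

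Counts were fitted in 1 model over the 24 libraries and 4 groups with edgeR 4.0.16 (R 4.3.3; filterByExpr at 10 counts, TMM, robust quasi-likelihood test, Benjamini-Hochberg adjustment over 17216 genes, threshold 0.05). The difference of tumour effects is the interaction contrast. The steps were tested on simulated data. Alternatives changed the scaling, the filter, the tool (DESeq2 1.42.0, or limma 3.58.1 on log2 TPM), the libraries or a covariate. Genes were named by largest change per complex or list, and others that are printed were chosen after their values were seen. The members and lists were chosen with earlier results of these data known.

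Sequences came from GENCODE M21 and RefSeq on GRCm38, which is not the submitters' build, and their coordinates are not those of mm39.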

Additional observations from a re-analysis of the deposited data

Results flagged for a closer look

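In Mdr2-/- tumour-bearing replicate 1, 6 nuclear-encoded members lay far above the other 5 libraries of the group. Atp5e was at 206.836 CPM with the next library at 116 CPM, Ndufb4 at 128.19 against 69.96 CPM, and Ndufb8 at 392.932 against 205 CPM. Ndufa4 was at 374.625 against 261 CPM, Sdhd at 362.542 against 225 CPM and Uqcrq at 535.636 against 357 CPM. In this library 7 nuclear non-coding RNAs took 7.95% of the counts, the highest share of all. Replicate 6 of the same group was close to it at 7.92% and held none of these high values. Its Ndufa4 (222 CPM) and Sdhd (148 CPM) were the lowest of the group. In wild-type tumour-bearing replicate 6, where that share was the lowest of its group at 2.30%, Ndufa10 was at 139.243 CPM against 104 CPM and Uqcrc1 at 160.909 against 107 CPM. The part of that share in these values was not tested.

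Other single libraries also stood apart. mt-Nd6 was at 1861.82 CPM in Mdr2-/- control replicate 2 against 1537 CPM, and Cox6b2 at 1.13545 CPM in replicate 4 against 0.562 CPM. mt-Nd4l was at 2.684 CPM in wild-type tumour-bearing replicate 4 against 1.76 CPM, and Ndufaf3 was lowest in replicate 5 at 6.58749 against 8.66 CPM. Cox6a1 and Cox8a were lowest in wild-type control replicate 6, at 63.6924 against 103 CPM and 100.036 against 151 CPM. Of 200 groups of libraries examined, 14 held such a library. Dixon's 95% critical value, by which they were chosen, is set so that chance passes it in about 1 of 20 groups.

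The tumour effect differed between the genotypes by the edgeR interaction test for 6 members, as Mdr2-/- minus wild type on the log2 scale. The differences were 0.81 for mt-Nd2, 0.90 for mt-Atp6, -0.65 for Ndufa8, -1.52 for Cox4i2, -1.02 for Ndufa4l2 and -0.64 for Atp5g2. Of these mt-Atp6 is among the genes of uncertain level, as almost all its words are shared with a nuclear copy.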

How the results depend on the processing

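No paired analysis was possible because the labels give no replicate numbers. Of 71 named member results past the threshold, 27 held under every alternative run, 16 of them mitochondrial-encoded.

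For the mitochondrial-encoded set in Mdr2-/- tumour-bearing against control livers, 1 was called by upper-quartile factors, 1 by total library size and 1 on either TPM scale (the last 3 higher), and 0 with the non-coding RNA share as covariate. In wild type the count was 4 by total library size, 3 on either TPM scale and 5 with the title number range as covariate. Between tumour-bearing livers it was 4 by total library size or on the 12 libraries alone and 2 on TPM. The difference of effects gave 0 without a filter, on log2(TPM + 1), with the non-coding RNA covariate or without both libraries that stood apart, and 1 with the title number range.

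For the nuclear-encoded set in Mdr2-/- the total count was 26 by total library size, 26 on log2(TPM + 1), 24 on log2(TPM + 0.1), mostly higher, and 2 with the non-coding RNA covariate. In wild type it was 21 by total library size, 30 on either TPM scale and 8 with the title number range, mostly higher, and 26 with the non-coding RNA covariate, of which 24 were lower. Between controls it was 34 by total library size and 43 on either TPM scale, mostly higher. Between tumour-bearing livers it was 0 by upper-quartile factors, 1 by total library size, with the stricter filter or on TPM, 12 with DESeq2, 30 with the title number range, 43 with the non-coding RNA covariate and 36 without both libraries. The difference gave 8 by total library size, 16 and 17 on TPM, 12 with the title number range and 1 without both libraries. By summed TPM the ratio of the sets was 9.92 in wild-type and 6.19 in Mdr2-/- controls.

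Leaving out 1 library at a time gave 0 to 6, 8 to 10, 13 to 13, 4 to 12 and 0 to 3 mitochondrial-encoded calls and 8 to 22, 5 to 12, 30 to 45, 0 to 15 and 2 to 10 nuclear-encoded calls, in the order Mdr2-/- tumour, wild-type tumour, controls, tumour-bearing livers and difference. With the non-coding RNA covariate the sign in Mdr2-/- tumour-bearing livers turned for Ndufb8 (-0.46), Ssbp1 (-0.0486), Yy1 (-0.0707), Ppargc1b (0.14), Pet100 (-0.0093), Coa6 (-0.13), Cox18 (0.0486), Mfn2 (0.18), Mrpl33 (-0.17), Mrpl12 (-0.39) and mt-Tv (-0.48). Sdha between controls turned to 0.0347 on log2(TPM + 1) and 0.0348 on log2(TPM + 0.1). The cause was not tested.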
